A study of Mus musculus with 6 samples.

Results

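The genes described here are chromatin regulators: subunits of the polycomb complexes, the TET enzymes, and the enzymes that add or remove methyl and acetyl groups on histones. They were taken by name from a list of 55 gene symbols, which was drawn up with earlier results of these data known. Of these, 54 were measured, out of 19937 genes tested. The remaining gene, Cbx6, a chromobox subunit of a polycomb complex, was left out because its probe set carries 3 symbols. The 54 genes comprised 17 polycomb genes, 3 TET genes, 10 histone methyltransferases, 11 histone demethylases, 5 acetyltransferases and 8 deacetylases. Ezh1 and Ezh2, whose products are histone methyltransferases too, are counted as polycomb genes only.

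The data are 6 Affymetrix Mouse Gene ST arrays, of 1 colour, with 3 in each group. All arrays carried RNA of lineage-negative (Lin-) hematopoietic progenitors from C57BL6 mice with the Rosa26rtTA allele, a doxycycline-dependent transactivator expressed from the ubiquitous Rosa26 locus. Cells of one group received the lentiviral vector pRRL.PPT.Tet.Evi1.IRES.EGFP.pre, which makes the zinc finger factor EVI1 and the fluorescent protein EGFP from a tetracycline-responsive promoter, and cells of the other the EGFP-only vector pRRL.PPT.Tet.EGFP.pre. Both groups were cultured serum-free with interleukin 11 and Flt3 ligand (50 ng/ml each, both human), murine SCF (50 ng/ml) and murine interleukin 3 (20 ng/ml). Both were given doxycycline at 1 µg/ml, and EGFP-positive cells were sorted; the labels put the collection of RNA at 20 h after induction in one place and at 24 h in another. The sorted cells are a mixed, polyclonal population in which vector copies and transgene level were not given, and nothing in the labels ties a replicate to an animal, a culture or a transduction of its own, so p-values measure the spread between these arrays, which may be technical. The question asked here is which chromatin regulators differ between cells with EVI1 and with the control vector after about a day of induction.

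Polycomb proteins keep genes silent. The complex PRC2, with EZH1 or EZH2 as its catalytic subunit and SUZ12 and EED as its core, methylates histone H3, and the complex PRC1, with RING1 or RNF2 as its ubiquitin ligase, a PCGF subunit and a chromobox (CBX) reader of the PRC2 mark, ubiquitylates histone H2A and compacts chromatin. TET enzymes oxidise methylated cytosine in DNA. Histone methyltransferases and demethylases write and erase methyl marks that go with active or silent genes, acetyltransferases open chromatin by acetylating histones, and deacetylases reverse this. In blood formation these genes matter for the balance of self-renewal and maturation, and several of them, such as Ezh2, Asxl1, Tet2, Kmt2a and Dot1l, are mutated in or needed by myeloid leukemias.

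The values are log2 intensities, and a difference is the mean of the arrays labelled EVI1 minus that of the arrays labelled EGFP. "Rose" and "fell" mean higher and lower in the arrays labelled EVI1 at an adjusted p under 0.05 (limma, adjusted over all 19937 genes). Mecom, the locus that encodes EVI1, showed no rise in arrays labelled EVI1 (6.39, 7.53 and 6.86 in EGFP replicates 1 to 3 against 6.29, 6.18 and 6.49 in EVI1 replicates 1 to 3; adjusted p = 0.166 by limma, and 0.2 by a two-sided exact permutation test). These values are those of the brighter of 2 Mecom probe sets. Its means, 6.92 (EGFP) and 6.32 (EVI1), lie under the background percentile given below in both groups. It is not known whether these probes detect the vector's transcript, so the labels are not checked by Mecom and each direction below is that of the labels. Array medians lay between 7.24 and 7.31. EGFP replicate 2 stood apart, with an array weight of 0.452 where the others had 0.874 to 1.55. Of 13 measured stem and progenitor markers all had means above the 95th percentile of olfactory receptor genes, which stand for background here (6.95 in the EGFP and 6.99 in the EVI1 arrays), and 7 fell, with array means of the list between 9.40 and 9.51 in the EGFP arrays and between 8.78 and 8.83 in the EVI1 arrays; Cd34 (-2.45), Myb (-1.61), Flt3 (-1.52) and Runx1 (-0.81) led them. With the replicate block 7 fell and 1 rose, Tal1 (0.47; adjusted p = 0.0504 without and 0.0277 with the block). Of 12 neutrophil markers 2 rose and 4 fell (3 and 7 with the replicate block), of 10 monocyte and macrophage markers 3 rose and 3 fell (3 and 6), of 11 mast cell and basophil markers 7 fell, of 7 erythroid markers 2 rose, of 6 megakaryocyte markers 2 rose and 2 fell, of 12 lymphoid markers 3 fell (7 of the 12 lay under the background percentile in both groups), and of 10 stromal and endothelial markers 2 rose and 1 fell (2 and 2 with the block; 3 of the 10 under the percentile in both groups). In sorted bulk cells a change in the share of a cell type and a change in RNA per cell cannot be told apart, and the part of these markers in the results below was not tested.

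The chromatin regulators went both ways, with 9 of 54 higher and 9 lower. The 9 that rose were Ezh1, Cbx7, Tet1, Kdm4c, Kdm5b, Kdm6b, Ep300, Kat2b and Hdac5. The 9 that fell were Ezh2, Suz12, Pcgf6, Dot1l, Setdb1, Prmt1, Prmt5, Kat2a and Hdac2. The 18 genes are 33.3% of the measured members. Over all genes tested 18.2% passed, 9.06% higher and 9.18% lower, but 53 of the 54 regulators lay at or above the median level of all genes, and among genes at or above that median 30.7% passed. The share of regulators that passed is therefore near that of other genes of like brightness. Changes were modest: the median absolute log2 difference of the 18 genes was 0.65, and 2 genes, Prmt1 and Prmt5, differed by at least 1. The median difference of all 54 was 0.07 (0.03 without EVI1 replicate 2), against 0.01 for all genes tested.

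All 18 genes that passed had groups that did not overlap. So did 7 that did not pass, which makes 25 of 54 (46.3%), where 32.6% of all genes tested have groups that do not overlap. The latter share is not matched for brightness, and none was taken for genes at or above the median level. Leaving out each array in turn, 8 of the 18 genes passed every time: Ezh2, Suz12, Cbx7, Dot1l, Prmt5, Kat2a, Kat2b and Hdac2. The other 10 lost the call without at least 1 array and are the less certain ones. The number higher was 2 without any one of the 3 EVI1 arrays, 5 without EGFP replicate 3, 6 without EGFP replicate 1 and 8 without EGFP replicate 2; the number lower was between 6 and 9. With replicate numbers as a block, 9 were higher and 9 lower again, and 17 of the 18 were the same genes.

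**Figure D1:**
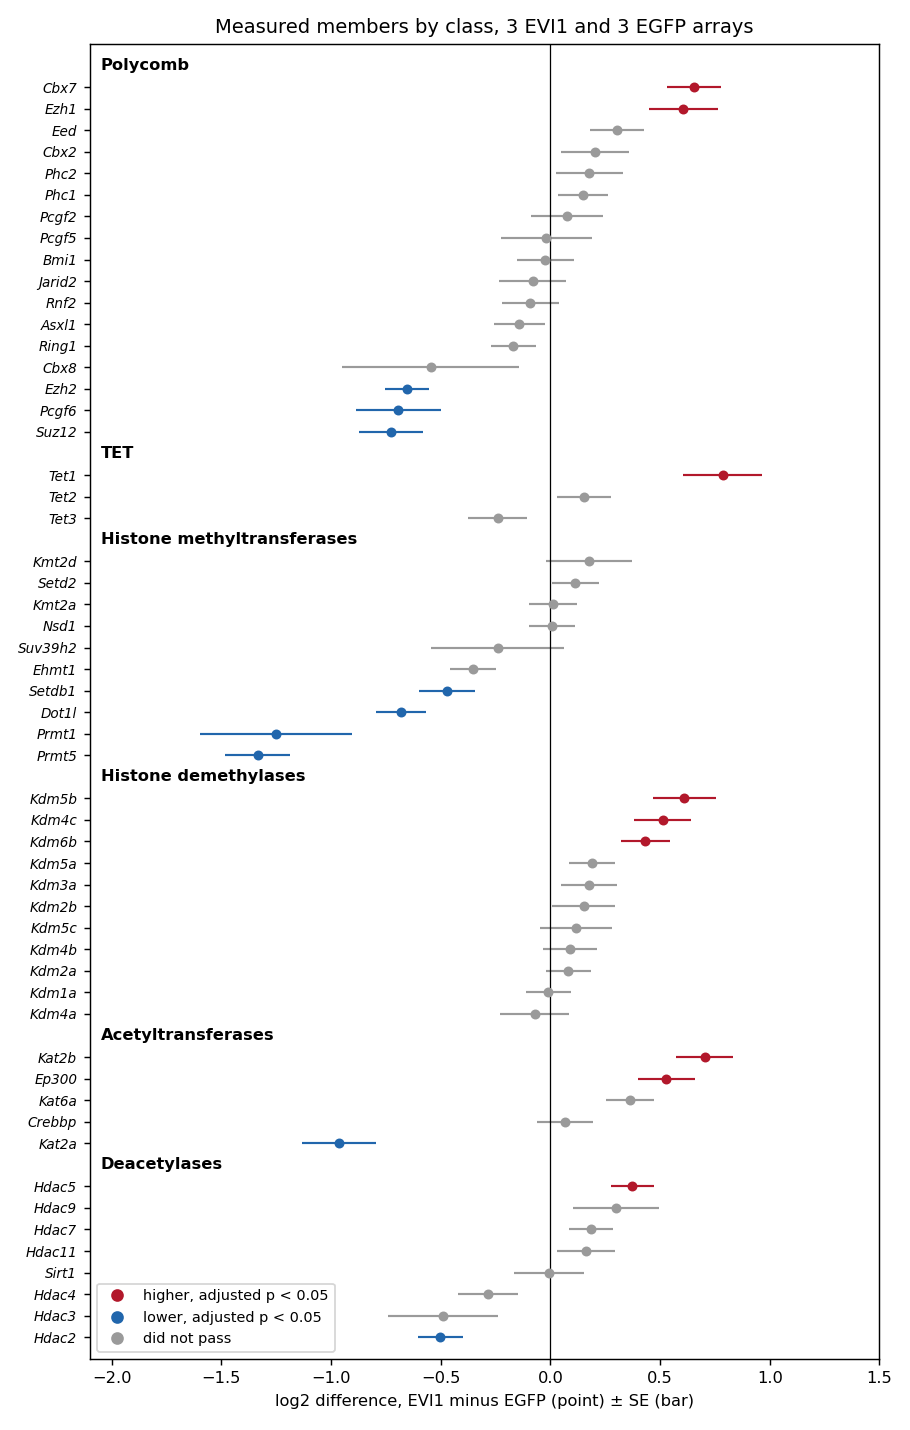
Log2 difference (EVI1 minus EGFP, points) with its standard error (bars) for each of the 54 measured genes, ordered within 6 classes; red and blue mark genes that rose or fell at an adjusted p under 0.05 and grey those that did not pass. In the methyltransferase class, which leaves out Ezh1 and Ezh2, the genes that passed lie to the left of 0. The demethylases that passed lie to the right, and the lowest point is Prmt5 at -1.34.

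**Figure D2:**
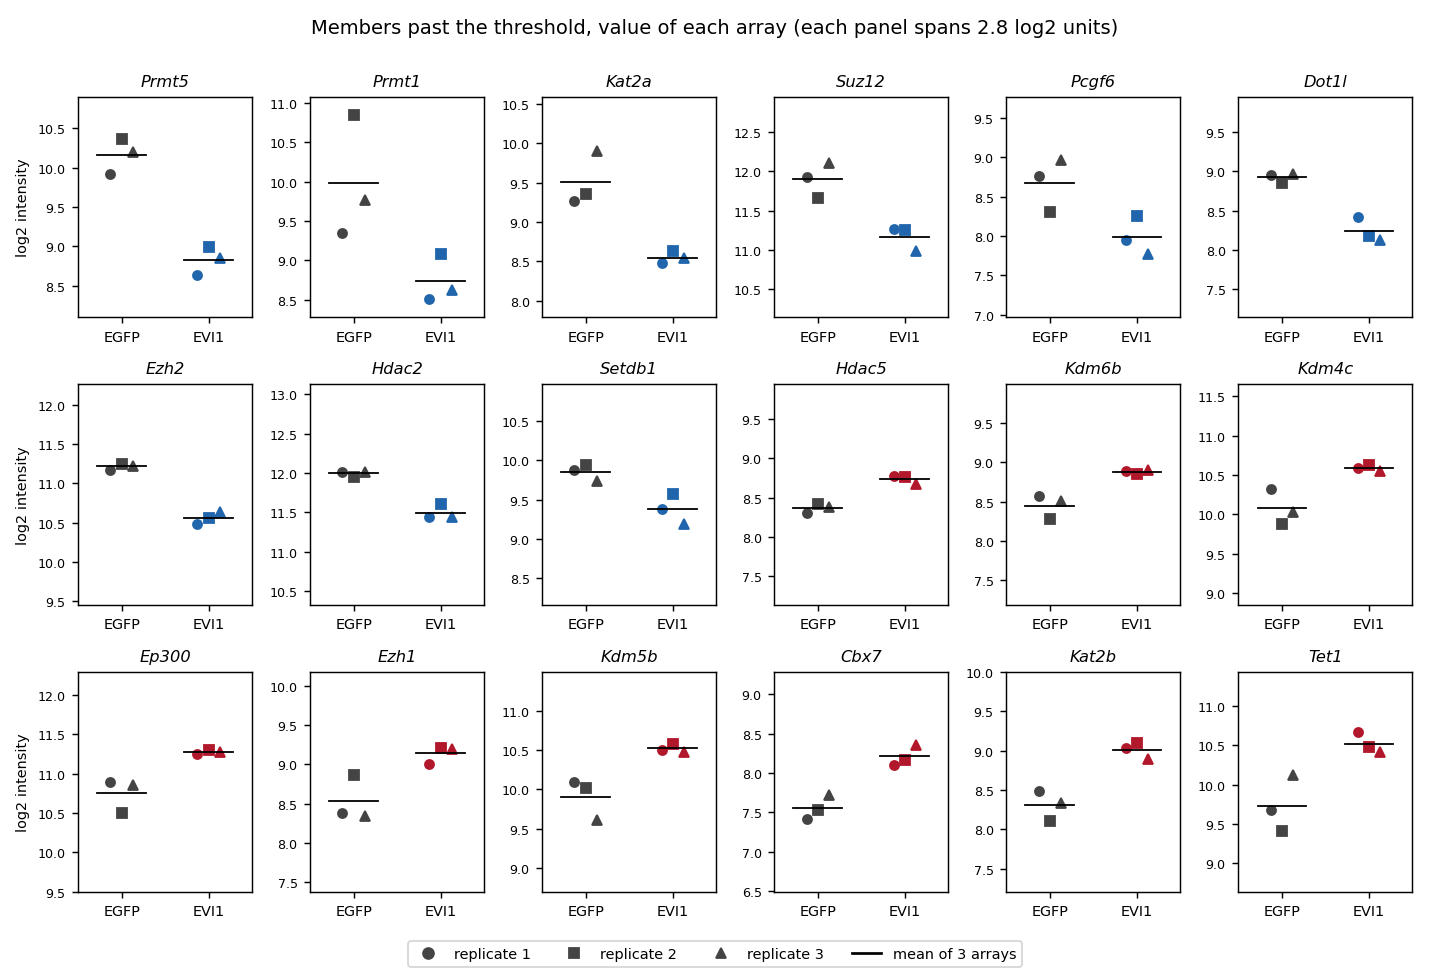
Log2 intensity of each array (symbols by replicate number) and group means (lines) for the 18 genes that passed, in order from the largest fall to the largest rise; every panel spans the same range of log2 units. In each panel the 3 EVI1 arrays lie on one side of the 3 EGFP arrays, and Prmt1 has 1 EGFP array, replicate 2 at 10.85, far above the others.

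Within PRC2 the 2 alternative catalytic subunits moved in opposite directions. Ezh2, the main methyltransferase of dividing cells, read 11.17, 11.24 and 11.22 in EGFP replicates 1 to 3 and 10.48, 10.56 and 10.64 in EVI1 replicates 1 to 3. Its fall of 0.65 ± 0.10 on the log2 scale (SE, n = 3 arrays each; limma adjusted p = 0.00306) is many times the spread within groups, and the groups are far apart. Ezh1, the less active paralog prominent in resting cells, read 8.38, 8.87 and 8.35 against 9.01, 9.21 and 9.20, a rise of 0.61 ± 0.16 (limma adjusted p = 0.0297). All EVI1 values of Ezh1 lie above all EGFP values, with EGFP replicate 2 the closest. Without EGFP replicate 1, EGFP replicate 3 or EVI1 replicate 1, 2 or 3, Ezh1 differed by 0.53, 0.51, 0.67, 0.57 and 0.58 and did not pass (adjusted p = 0.0908, 0.107, 0.0506, 0.0990 and 0.110).

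The core subunits of PRC2 did not move together. Suz12, the scaffold, read 11.93, 11.66 and 12.11 with EGFP and 11.26, 11.26 and 10.98 with EVI1, and fell by 0.73 ± 0.15 (limma adjusted p = 0.0102). Eed, which binds the methyl mark and stimulates the enzyme, read 10.79, 10.54 and 10.48 against 11.02, 10.83 and 10.87. Its difference of 0.30 ± 0.12 did not pass (adjusted p = 0.143), although its groups do not overlap and it is opposite in sign to that of Suz12. A second Eed probe set near background (5.83 and 6.05) differed by 0.22. Jarid2, which helps to recruit PRC2, differed by -0.08 ± 0.15. In all 5 PRC2 genes, 1 rose, 2 fell and 2 did not pass.

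The promoters of Ezh2, Suz12 and Ezh1 are shown, chosen with the calls known. An E2F-like motif lies in those of Ezh2 and Suz12 and not in that of Ezh1. The windows of Eed and Jarid2, which did not pass, hold none either. Of the 9 members that fell, 3 hold one, and its part in the falls was not tested. Each window runs from 250 bases before to 50 after the start of the gene (RefSeq, GRCm38.p6) and is written 5′ to 3′ along the gene. Capitals mark 1 of the 4 letter strings searched for as E2F-like, which are TTTCCCGC and its variants with the middle letters changed (TTTGGCGC or TTTCGCGC or TTTGCCGC), on either strand. In Ezh2 the match is TTTGGCGC, just after the start, and in Suz12 it is TTTCCCGC, at positions -219 to -212 from it.
Ezh2 chr6:47594981-47595280 (-): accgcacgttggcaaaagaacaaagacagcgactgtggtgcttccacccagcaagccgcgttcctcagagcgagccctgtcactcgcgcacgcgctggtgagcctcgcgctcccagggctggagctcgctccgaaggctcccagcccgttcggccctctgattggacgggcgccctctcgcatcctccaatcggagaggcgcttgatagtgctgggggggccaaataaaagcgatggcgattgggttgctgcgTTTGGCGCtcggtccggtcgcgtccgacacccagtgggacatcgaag
Suz12 chr11:79992856-79993155 (+): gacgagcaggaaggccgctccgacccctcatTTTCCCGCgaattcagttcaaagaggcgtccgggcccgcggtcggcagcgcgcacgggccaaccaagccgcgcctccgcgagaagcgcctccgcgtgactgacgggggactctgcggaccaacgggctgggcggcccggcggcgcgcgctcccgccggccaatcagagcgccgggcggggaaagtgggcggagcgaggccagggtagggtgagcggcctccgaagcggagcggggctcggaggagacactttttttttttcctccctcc
Ezh1 chr11:101226414-101226713 (-): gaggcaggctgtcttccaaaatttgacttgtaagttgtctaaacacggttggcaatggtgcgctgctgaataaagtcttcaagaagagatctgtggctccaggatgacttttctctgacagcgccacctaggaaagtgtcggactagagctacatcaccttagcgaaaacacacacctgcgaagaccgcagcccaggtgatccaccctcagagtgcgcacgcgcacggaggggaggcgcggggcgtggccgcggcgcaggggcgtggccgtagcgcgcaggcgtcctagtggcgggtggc

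Most PRC1 genes did not pass. Of 11 measured, 1 rose and 1 fell. Cbx7, a chromobox reader linked to self-renewal of blood stem cells, read 7.42, 7.53 and 7.72 with EGFP and 8.10, 8.17 and 8.36 with EVI1, a rise of 0.65 ± 0.12 (limma adjusted p = 0.00791). Every EVI1 array lies above every EGFP array. Pcgf6, the PCGF subunit of a variant PRC1, read 8.76, 8.30 and 8.97 in EGFP against 7.94, 8.25 and 7.76 and fell by 0.69 ± 0.19 (adjusted p = 0.0401). Its groups nearly touch at replicate 2, and the call was lost with the replicate block (adjusted p = 0.0641), when values were quantile normalised once more (0.0502) and on leaving out replicate 1 or 3 of EGFP (-0.65 and -0.55; 0.105 and 0.133) or replicate 1 or 3 of EVI1 (-0.67 and -0.58; 0.110 and 0.153).

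The ubiquitin ligases and the canonical PCGF subunits showed no difference that passed. Ring1 read 7.58, 7.51 and 7.63 against 7.38, 7.33 and 7.51, a difference of -0.17 ± 0.10 with groups that abut (adjusted p = 0.360). Rnf2, the main ligase, read 9.18, 8.82 and 8.91 against 8.91, 8.97 and 8.76 (-0.09 ± 0.13). Bmi1, the PCGF subunit needed for stem cell self-renewal, read 9.13, 8.84 and 9.11 against 8.90, 9.19 and 8.92 (-0.02 ± 0.13). For Rnf2 and Bmi1 the groups overlap. Pcgf2, the paralog of Bmi1, differed by 0.08 and Pcgf5 by -0.02. The chromobox gene Cbx2 differed by 0.20, the polyhomeotic genes Phc1 and Phc2, whose proteins let PRC1 polymerise, by 0.15 and 0.18, and Asxl1, the partner of the deubiquitylase that removes the PRC1 mark, by -0.14. Cbx8 shows how far EGFP replicate 2 could stand apart: it read 9.01 there and between 7.22 and 7.49 on the other 5 arrays, and its difference of -0.55 ± 0.40 did not pass. Over the 17 polycomb genes the median was -0.02, between -0.11 and 0.03 when single arrays were left out, so it has no settled sign.

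Of the TET genes, Tet1 rose while Tet2 and Tet3 did not pass. Tet1, the TET enzyme best known from embryonic stem cells, read 9.68, 9.41 and 10.12 with EGFP and 10.67, 10.48 and 10.41 with EVI1, a 1.72-fold rise (0.79 ± 0.18 on the log2 scale, limma adjusted p = 0.0185). The groups do not overlap, with EGFP replicate 3 the nearest. Its 3 probe sets were all higher, by 0.79, 0.99 and 0.57. The call was lost without EGFP replicate 1 (0.76, adjusted p = 0.0536) and without EVI1 replicate 1, 2 or 3 (0.71, 0.81 and 0.84; adjusted p = 0.0670, 0.0529 and 0.0553).

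Tet2, the TET gene most often mutated in myeloid disease, read 9.95, 9.71 and 9.69 against 10.10, 9.87 and 9.84, a difference of 0.15 ± 0.12 (adjusted p = 0.516). Tet3 read 8.34, 8.64 and 8.45 against 8.22, 8.06 and 8.42, a difference of -0.24 ± 0.13 (adjusted p = 0.303), and its second probe set differed by -0.16. For both genes the groups overlap, although each same-numbered pair of arrays differs in the direction of the mean. No TET gene fell by limma, and none was lower at an unadjusted p under 0.05.

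In the methyltransferase class, which leaves out Ezh1 and Ezh2, the genes that passed fell. By limma 4 of 10 fell and none rose, with 5 lower and 0 higher at an unadjusted p under 0.05. Ezh1, counted as a polycomb gene, rose, and Ezh2 fell. The steepest falls of all 54 genes were those of the arginine methyltransferases. Prmt5, which makes symmetric dimethylarginine on histones and splicing proteins and is needed for blood progenitor growth, read 9.92, 10.36 and 10.19 with EGFP and 8.63, 8.99 and 8.85 with EVI1. This is a 2.52-fold fall (-1.34 ± 0.15, limma adjusted p = 0.000733), larger than the whole spread of either group. Prmt1, the main asymmetric arginine methyltransferase, read 9.35, 10.85 and 9.76 against 8.51, 9.08 and 8.62, a 2.38-fold fall (-1.25 ± 0.35, adjusted p = 0.0397). Without EGFP replicate 2 the Prmt1 difference was -0.82 and still passed (adjusted p = 0.0199). In both genes replicate 2 is the highest array of its group, and with the replicate block Prmt1 had an adjusted p of 0.00432. The Prmt1 call was lost with array medians subtracted (adjusted p = 0.0526) and without EGFP replicate 3 (-1.36, 0.0779) or EVI1 replicate 1, 2 or 3 (-1.14, -1.42 and -1.19; 0.117, 0.0574 and 0.143).

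Among the 8 lysine methyltransferases 2 fell. Dot1l, which methylates histone H3 in transcribed genes and is required by KMT2A-rearranged leukemia, read 8.96, 8.85 and 8.97 against 8.42, 8.18 and 8.13, a fall of 0.68 ± 0.12 (limma adjusted p = 0.00483); the EVI1 arrays all lie below the EGFP arrays. Setdb1, which writes a silencing mark over retroviral elements, read 9.88, 9.95 and 9.75 against 9.39, 9.57 and 9.19 and fell by 0.47 ± 0.13 (adjusted p = 0.0359). The Setdb1 groups are close, and its call was lost with array medians subtracted (0.0544), with trend and robust estimation (0.0548) and without any one array except EVI1 replicate 2 (-0.46, -0.43 and -0.53 without EGFP replicates 1 to 3, -0.47 and -0.38 without EVI1 replicates 1 and 3; adjusted p between 0.0610 and 0.119). Ehmt1, which acts on the same lysine, differed by -0.35 ± 0.11 and just missed (adjusted p = 0.0539); its groups do not overlap, and it passed once dim probe sets under the 25th percentile were dropped (0.0445) or those under the median (0.0430).

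The leukemia gene Kmt2a, whose product marks active promoters, did not differ measurably: 9.96, 9.80 and 10.07 against 9.98, 9.91 and 9.98, a difference of 0.01 ± 0.11 (adjusted p = 0.973). Kmt2d, which acts at enhancers, differed by 0.18 in the brighter and -0.12 in the dimmer of its probe sets. Setd2 and Nsd1, which methylate histone H3 along gene bodies, differed by 0.11 and 0.01. Suv39h2, a heterochromatin methyltransferase, read 9.57, 8.37 and 9.60 with EGFP and 9.07, 8.88 and 8.86 with EVI1. Its difference of -0.24 ± 0.30 did not pass with all arrays, but without EGFP replicate 2, its lowest array, it was -0.65 (adjusted p = 0.00642). The median of the 10 genes was -0.30, and it lay between -0.36 and -0.21 when single arrays were left out.

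Histone demethylases that passed all rose: 3 of 11 were higher and none lower by limma, and at an unadjusted p under 0.05 the counts were again 3 and 0. Kdm5b, a demethylase of the active promoter mark, read 10.10, 10.01 and 9.61 with EGFP and 10.50, 10.58 and 10.48 with EVI1, a rise of 0.61 ± 0.14 (limma adjusted p = 0.0192). Kdm4c, which removes methyl groups of heterochromatin, read 10.32, 9.88 and 10.03 against 10.58, 10.63 and 10.56, a rise of 0.51 ± 0.13 (adjusted p = 0.0289). Kdm6b, which erases the mark that PRC2 writes, read 8.57, 8.28 and 8.50 against 8.89, 8.85 and 8.91, a rise of 0.43 ± 0.11 (adjusted p = 0.0302). In all 3 genes the EVI1 arrays lie close together and above every EGFP array.

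Each of these calls depended on having all 3 EVI1 arrays. Without EVI1 replicate 1, 2 or 3 the adjusted p was 0.0565, 0.0695 and 0.0622 for Kdm5b, 0.0828, 0.0937 and 0.0813 for Kdm4c and 0.0925, 0.0784 and 0.0962 for Kdm6b. Their differences stayed between 0.42 and 0.63 there. Kdm4c and Kdm6b also lost the call without EGFP replicate 2 (0.41 and 0.35; 0.0531 and 0.0563) and without EGFP replicate 3 (0.49 and 0.46; 0.0948 and 0.0686).

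The other 8 demethylases did not pass. Kdm1a (LSD1), a deacetylase-associated demethylase that restrains myeloid maturation, read 10.18, 10.31 and 10.29 against 10.17, 10.27 and 10.32, a difference of -0.01 ± 0.10 with groups that overlap. Kdm5a, the paralog of Kdm5b, differed by 0.19 with groups that do not overlap (adjusted p = 0.302), and Kdm5c by 0.12. Kdm3a differed by 0.18, Kdm2b, which brings a variant PRC1 to CpG islands, by 0.15, Kdm4b by 0.09, Kdm2a by 0.08 and Kdm4a by -0.07. So 9 of the 11 demethylases had a difference above 0. Their median was 0.15, and 0.09 without EGFP replicate 1.

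The acetyltransferases held the widest contrast between paralogs. Kat2a (GCN5) and Kat2b (PCAF) are alternative catalytic subunits of the same coactivator complexes. Kat2a read 9.27, 9.36 and 9.91 with EGFP and 8.48, 8.63 and 8.54 with EVI1, a 1.95-fold fall (-0.96 ± 0.17, limma adjusted p = 0.00578). Kat2b read 8.49, 8.11 and 8.33 against 9.04, 9.10 and 8.90, a 1.63-fold rise (0.70 ± 0.13, adjusted p = 0.00681). Both calls were kept without each of the arrays in turn.

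Of the paired large coactivators, Ep300 rose and Crebbp did not pass. Ep300 (p300) read 10.89, 10.50 and 10.86 against 11.25, 11.30 and 11.28, a rise of 0.53 ± 0.13 (limma adjusted p = 0.0234), which did not pass without EVI1 replicate 1, 2 or 3 (0.54, 0.52 and 0.53; adjusted p = 0.0663, 0.0770 and 0.0784). Crebbp (CBP), its paralog, read 10.86, 10.64 and 11.07 against 10.92, 10.92 and 10.92, a difference of 0.07 ± 0.13 with groups that overlap (adjusted p = 0.829). Kat6a (MOZ), needed for blood stem cells, differed by 0.36 ± 0.11 and just missed the threshold (adjusted p = 0.0577) with groups that do not overlap; it passed with array weights (0.0251), without EGFP replicate 2 (0.43, 0.0317) and with dim probe sets under the 25th percentile or the median dropped (0.0482 and 0.0457). The median of the 5 genes was 0.36.

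The promoters of Kat2a and Kat2b, chosen with the calls known, are shown written as above. Kat2a carries an E2F-like match, read as GCGGCAAA on the gene's strand and as TTTGCCGC on the other, at positions -59 to -52 from the start. The Kat2b window, 1 of 2 RefSeq windows of that gene, carries none.
Kat2a chr11:100712418-100712717 (-): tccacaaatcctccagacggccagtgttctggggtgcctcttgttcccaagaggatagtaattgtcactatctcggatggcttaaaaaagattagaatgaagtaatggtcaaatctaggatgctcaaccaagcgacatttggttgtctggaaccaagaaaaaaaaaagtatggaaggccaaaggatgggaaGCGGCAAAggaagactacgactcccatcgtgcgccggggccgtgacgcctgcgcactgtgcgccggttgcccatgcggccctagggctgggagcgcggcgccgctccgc
Kat2b chr17:53566721-53567020 (+): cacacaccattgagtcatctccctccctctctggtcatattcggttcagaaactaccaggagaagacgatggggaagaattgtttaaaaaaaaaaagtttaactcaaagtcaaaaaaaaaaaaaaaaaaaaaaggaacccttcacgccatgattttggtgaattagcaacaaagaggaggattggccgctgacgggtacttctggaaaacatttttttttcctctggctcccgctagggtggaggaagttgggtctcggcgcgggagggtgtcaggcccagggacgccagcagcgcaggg

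Of the 8 deacetylases 1 fell and 1 rose. Hdac2, a nuclear class I enzyme of the NuRD and SIN3 complexes, was among the brightest of the 54 genes and read 12.02, 11.96 and 12.02 in the EGFP arrays against 11.44, 11.60 and 11.44 in the EVI1 arrays, a fall of 0.50 ± 0.10 (limma adjusted p = 0.0108). Hdac5, a class IIa enzyme that shuttles between nucleus and cytoplasm, read 8.30, 8.42 and 8.38 against 8.78, 8.76 and 8.68, a rise of 0.37 ± 0.10 (adjusted p = 0.0327). The groups of both genes are tight and apart. The Hdac5 call was lost with trend and robust estimation (0.0600), and without any one array except EGFP replicate 2 (0.34 to 0.40; adjusted p = 0.0640 without EVI1 replicate 3 to 0.118 without EVI1 replicate 1, with 0.0970, 0.0870 and 0.101 without EGFP replicate 1, EGFP replicate 3 and EVI1 replicate 2).

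Hdac3, the class I enzyme of the NCOR complex, read 9.92, 10.82 and 9.99 against 9.50, 10.07 and 9.69, with replicate 2 the highest in each group. Its difference of -0.49 ± 0.25 did not pass (adjusted p = 0.257), but did with the replicate block (adjusted p = 0.0291). Of the remaining class IIa genes, Hdac4 differed by -0.28, Hdac7 by 0.19 and Hdac9 by 0.30; the groups of Hdac4 and Hdac7 do not overlap, but neither gene passed. Hdac11 differed by 0.16 and Sirt1, a deacetylase that depends on NAD, by -0.01. The median of the 8 genes was 0.08, and between -0.04 and 0.13 when single arrays were left out.

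Related members were compared directly by the difference of their log2 values on the same array, for 19 pairs with an exact two-sided permutation test over the 6 arrays, which cannot go below p = 0.1. In 9 of the 19 pairs the groups did not overlap. The widest change was that of Kat2a minus Kat2b, which went from 0.78, 1.25 and 1.58 in the EGFP arrays to -0.56, -0.47 and -0.36 in the EVI1 arrays. That is a shift of -1.67 ± 0.24 (SE; exact p = 0.1, 0.211 after Benjamini-Hochberg adjustment over the pairs), so that the order of the 2 probe set signals turned on every array. Ezh2 minus Ezh1 went from 2.79, 2.38 and 2.88 to 1.47, 1.35 and 1.44, a shift of -1.26 ± 0.16 with the same exact p. No pair passed, since 0.211 was the smallest adjusted p of this exact test. Each of the 9 pairs without overlap holds a gene already called on these arrays. Their separation is therefore no separate support for those calls. The shifts describe unequal change on these arrays, and say nothing of which transcript is more abundant.

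Tet1 shifted against Tet3 by 1.03 ± 0.30 and against Tet2 by 0.63 ± 0.24, Hdac5 against Hdac4 by 0.66 ± 0.12, Kdm5b against Kdm5a by 0.42 ± 0.16 and Kdm4c against Kdm4b by 0.42 ± 0.18. Crebbp shifted against Ep300 by -0.46 ± 0.07 and Cbx2 against Cbx7 by -0.45 ± 0.08. All 7 of these pairs had groups that did not overlap and the same exact p of 0.1. The arginine methyltransferases Prmt1 and Prmt5 fell by like amounts, and their difference shifted by 0.08 ± 0.34 (exact p = 0.9). For Bmi1 minus Pcgf2 the shift was -0.10 ± 0.14, for Rnf2 minus Ring1 0.08 ± 0.15, for Phc1 minus Phc2 -0.03 ± 0.09 and for Hdac2 minus Hdac3 -0.01 ± 0.33, with exact p between 0.5 and 1 and groups that overlap.

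**Figure D3:**
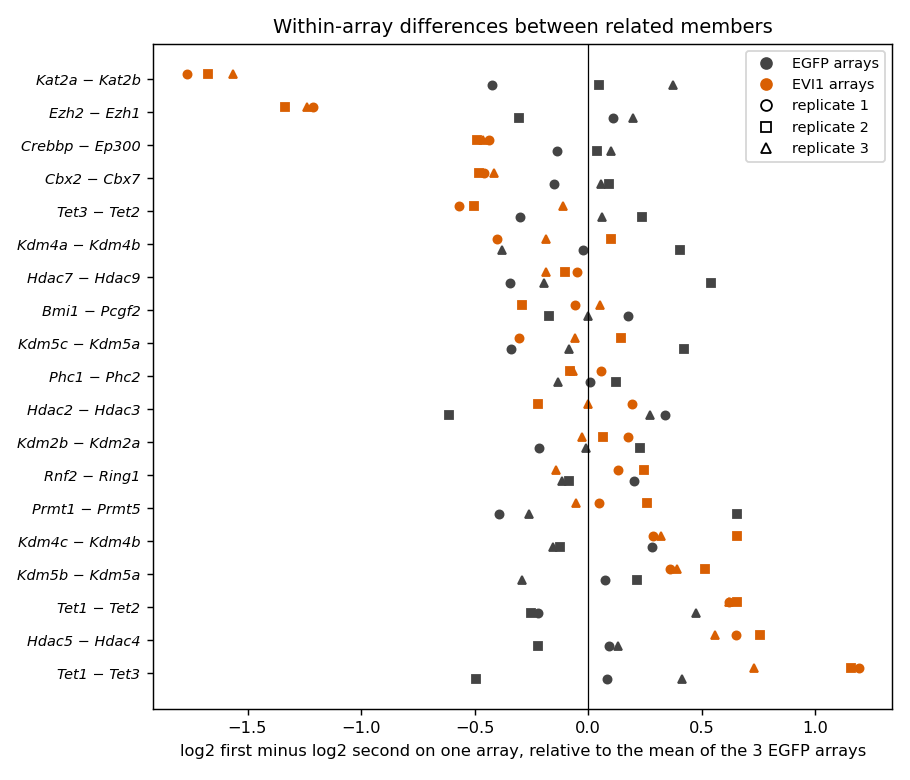
Difference of log2 values of 2 related genes on the same array, set to 0 at the mean of the EGFP arrays, for 19 pairs; dark grey symbols are the 3 EGFP arrays and orange symbols the 3 EVI1 arrays, shaped by replicate number. Kat2a minus Kat2b and Ezh2 minus Ezh1 lie furthest left, with shifts of -1.67 and -1.26, and Tet1 minus Tet3 furthest right at 1.03.

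Set side by side, the genes that passed among the methyltransferases and among the demethylases each went in a single direction, but they are few. None of the 10 methyltransferases rose and 4 fell (40%), 2 of which were Prmt1 and Prmt5. Of the methyltransferases counted as polycomb genes, Ezh1 rose and Ezh2 fell. Of the 8 lysine methyltransferases 25% passed. None of the 11 demethylases fell and 3 rose (27.3%), and these 3 calls were lost when any EVI1 array was left out. Among all genes at or above the median level 30.7% passed, and over all genes tested 9.06% rose and 9.18% fell. Class means per array ran from 9.67 to 9.79 in the EGFP and from 9.29 to 9.37 in the EVI1 arrays for methyltransferases, and from 9.18 to 9.30 and from 9.44 to 9.49 for demethylases, with no overlap of groups in either class. Without Prmt1 and Prmt5, the 8 lysine methyltransferases ran from 9.59 to 9.68 and from 9.44 to 9.47. TET genes ran from 9.25 to 9.42 and from 9.47 to 9.66. Polycomb genes (8.98 to 9.04 and 8.91 to 8.99), acetyltransferases (9.70 to 9.96 and 9.95 to 10.0) and deacetylases (8.85 to 8.90 and 8.80 to 8.90) had groups that overlap. A difference between classes was not tested, since the genes were chosen with earlier results known.

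**Figure D4:**
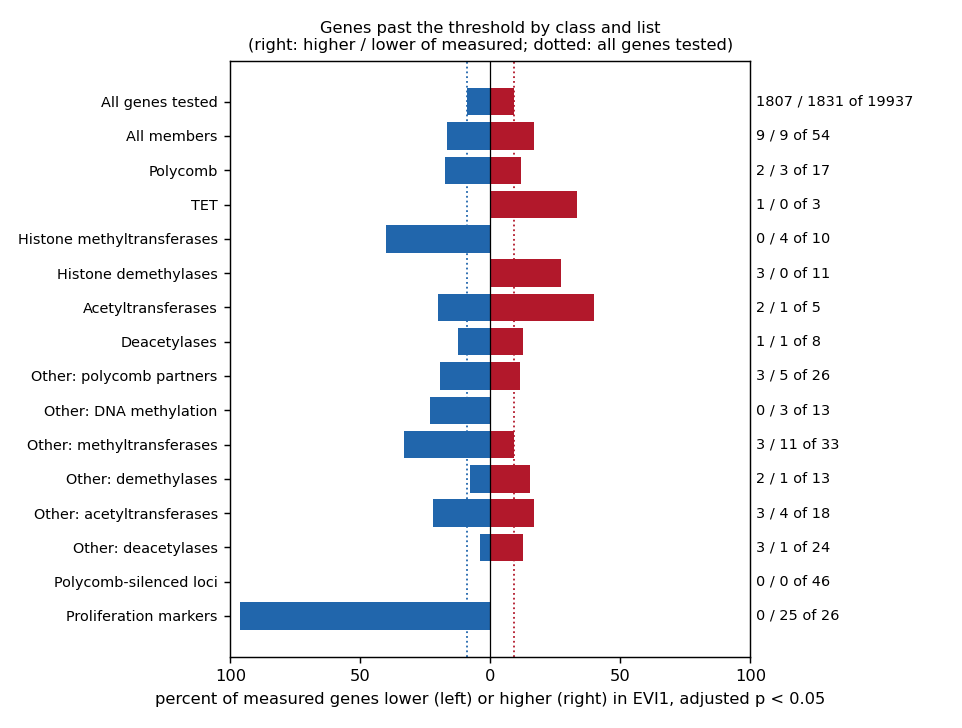
Percent of measured genes that fell (blue, left) or rose (red, right) at an adjusted p under 0.05, for all genes, the 6 classes and 8 further gene lists, with counts at the right and the shares of all genes as dotted lines. The dotted lines are not matched for brightness. Methyltransferases, without Ezh1 and Ezh2, extend only to the left (4 of 10) and demethylases only to the right (3 of 11). Proliferation markers lie almost wholly to the left (25 of 26).

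The other genes of the same pathways were taken from 6 further lists, none of whose members is among the 54 genes. Of 127 measured, 14 rose and 25 fell (30.7%), with a median of -0.04 (17 and 24 with the replicate block). Among all genes at or above the median level the share that passed was the same, 30.7%. By list, 30.8% of polycomb partners, 23.1% of DNA methylation genes and 42.4% of methyltransferases passed. So did 23.1% of demethylases, 38.9% of acetyltransferases and 16.7% of deacetylases. Without EGFP replicate 3, EVI1 replicate 1 or EVI1 replicate 3, 7 rose. Without EVI1 replicate 2, 8 rose, and without EVI1 replicate 3, 14 fell. Among 33 further methyltransferases and their cofactors 11 fell and 3 rose. They included the arginine methyltransferases Prmt3 (-1.09 ± 0.11, limma adjusted p = 0.000539) and Carm1 (-0.89 ± 0.13), the lysine methyltransferase Smyd2 (-1.14 ± 0.13) and Nsd2, a writer along gene bodies (-0.78 ± 0.11). Falls thus outnumbered rises in this list as among the 10 methyltransferases above, but they did so over all 127 further genes too. The median of this list was -0.02, with 14 genes above 0 and 19 below. The 13 further demethylases had 2 rises, Kdm7a (1.26 ± 0.20, adjusted p = 0.00339) and Phf8 (0.54 ± 0.13), and 1 fall, Riox1 (-0.54 ± 0.15), which did not pass with the replicate block (adjusted p = 0.0638). Riox2 (0.46 ± 0.14) passed with it (0.0594 without, 0.0323 with the block), so that 3 were higher and 0 lower there.

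Of 26 polycomb partners 3 rose and 5 fell. Bcor, the corepressor of a variant PRC1, rose by 1.17 ± 0.12 (limma adjusted p = 0.000536) and Sfmbt2 by 0.80 ± 0.12, while E2f6, a repressor in another variant complex, fell by 0.94 ± 0.16 on the log2 scale and Phf19, a PRC2 accessory subunit, fell by 0.82 ± 0.13. With the replicate block 4 were higher, the one gained being the polyhomeotic gene Phc3 (0.73 ± 0.31; adjusted p = 0.159 without and 0.0277 with the block). In the DNA methylation list 3 of 13 fell and none rose by limma (none either at an unadjusted p under 0.05 or with the replicate block): the maintenance methyltransferase Dnmt1 (-0.96 ± 0.12, adjusted p = 0.00106), its cofactor Uhrf1 (-1.40 ± 0.26) and Dnmt3l (-0.59 ± 0.16), whose means of 6.77 and 6.18 lie under the background percentile in both groups. Of 18 further acetyltransferases and partners 3 rose and 4 fell, led by Naa50 (-0.92), Ncoa3 (0.53), Kat7 (-0.55) and the histone acetyltransferase Hat1 (-0.56), the last of which missed the threshold with the replicate block (adjusted p = 0.0507), where Ing5 passed as lower (-0.45; 0.0898 without and 0.0342 with the block). Of 24 deacetylases and corepressors 3 rose and 1 fell: the NuRD remodelers Chd4 (0.53) and Chd3 (0.61) and the sirtuin Sirt2 (0.56) rose, and the corepressor Sin3a fell (-0.49). With the replicate block 4 were higher, the one gained being the corepressor Sin3b (0.43 ± 0.14; adjusted p = 0.0719 without and 0.0389 with the block).

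Loci that polycomb complexes are known to silence were looked at as well. Of 46 measured, which were the Hox genes, Cdkn2a, Cdkn2b and a few developmental regulators, none rose or fell by limma; 2 were higher and 0 lower at an unadjusted p under 0.05, and 1, Hoxb5, was higher with the replicate block (0.44 ± 0.14 without the block; adjusted p = 0.0652 without and 0.0281 with it). Of the 46 genes 30 lay under the background percentile in both groups, so a fall of these could not be seen. Cdkn2a, the classic polycomb target and cell cycle inhibitor, averaged 7.16 and 7.20 (0.04 ± 0.11), and Cdkn2b 7.42 and 7.62 (0.19 ± 0.12). The Cdkn2a means lie only a little above the background percentile (6.95 in the EGFP and 6.99 in the EVI1 arrays), so a fall of it could hardly be seen.

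Genes of dividing cells were lower in the arrays labelled EVI1, and several regulators that fell, among them Ezh2, Suz12, Prmt5 and Dnmt1, are known to be more abundant in dividing cells. Of 26 proliferation markers 25 fell (26 with the replicate block), and at an unadjusted p under 0.05 26 were lower and 0 higher, with a median of -1.27. The replication genes Mcm3 (-1.72), Gins1 (-1.70), Mcm4 (-1.62) and Mcm7 (-1.61) fell, and so did Mki67 (-1.12). Averaged per array, the markers stood at 10.4, 10.6 and 10.5 (EGFP) against 9.16, 9.44 and 9.14 (EVI1). The regulators were named here because they fell, and with 2 groups a shared fall cannot show a link to the list. The part of proliferation in the falls of Ezh2, Suz12 and the methyltransferases was not tested.

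Promoter windows were searched in both strands for 5 motifs, and 46 of the 54 genes had at least 1 window in the RefSeq table. The motifs were chosen with the calls known, so the counts by call are descriptive only. An E2F-like string was found in 3 of the 9 genes that fell (Ezh2, Suz12 and Kat2a), in none of the 8 genes with a window that rose and in none of the 29 that did not pass; 2.26% of all 32851 windows hold one. The E-box CACGTG was found in 2 of the 8 genes that rose, 1 of the 9 that fell and 5 of the 29 others (7.15% of all windows), and GATAAG, known from promoters of erythroid genes, in 0, 1 and 3 of them (7.44%). The ETS-type string CCGGAAG was found in 0, 2 and 3 (8.86%) and CCAAT in 3, 5 and 13 (37.4%). These percentages count windows, while the members are counted by gene. By gene, of 27025 with a window, 704 held an E2F-like string and 2187 the E-box. GATAAG was in 2320 of them, CCGGAAG in 2683 and CCAAT in 11096. The windows of the 46 genes were rich in CpG, with a median of 23.5 per window against 7 for all windows. The E2F-like strings, CACGTG and CCGGAAG contain CpG themselves, so all windows are not a matched background for them. A match describes these letters only, and no factor's binding was measured.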

How the data were processed

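The authors deposited 1 table of log2 intensities, 1 value per probe set for each of 6 arrays, made with RMA per the submitters' processing notes. RMA corrects background, quantile-normalises arrays and summarises probes, so a change in total RNA would not show. No detection calls were used, arrays have no depth, and their number limits precision. Values were used as deposited: of 34760 probe sets, 21640 carry exactly 1 symbol, and the one with the highest mean stood for its gene, giving 19937 genes. EVI1 and EGFP arrays, grouped by title, were compared with limma 3.58.1 in R 4.3.3 (lmFit, eBayes, two-sided) with Benjamini-Hochberg adjustment over all genes; the fit was tested on simulated data. The members, gene lists and naming rules were chosen with earlier results of these data known. Named with array values were all genes that passed, fixed catalytic subunits and, after their values were seen, Cbx8, Suv39h2 and Hdac3; from other lists the 4 smallest p-values past the threshold, with Mki67, Hoxb5, Cdkn2a, Cdkn2b, Tal1, Phc3, Riox2, Ing5 and Sin3b added after their values were seen; cell markers other than stem and progenitor ones are given as counts. Alternatives were the mean of a gene's probe sets, filters on dim probe sets, a further quantile normalisation, subtracted array medians, trend and robust estimation, array weights, the replicate block and leaving out each array. The motifs and the promoters printed were chosen with the calls known. Deviations of same-numbered arrays from their group means correlated at r = 0.491, 0.269 and 0.197, though the labels do not explain the numbers. The replicate block therefore took the numbers as pairs. Unless the replicate block is named, every limma call comes from the fit without pairing.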

Additional observations from a re-analysis of the deposited data

How the results depend on the processing

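No call on the 54 genes turned its sign in the alternatives run. Of the 18 genes that passed, 14 passed in every alternative with all 6 arrays in which they were tested, and 8 also passed without each array in turn. Genes higher numbered 2 to 8, and the further chromatin genes higher 7 to 15 and lower 14 to 29, when single arrays were left out; fewer arrays were then tested. Medians with single arrays left out lay between 0.029 and 0.074 for all 54 genes, -0.11 and 0.028 for polycomb genes, -0.36 and -0.21 for methyltransferases, 0.093 and 0.19 for demethylases, and -0.045 and 0.13 for deacetylases. With array weights the median was -0.076 for polycomb genes, -0.37 for methyltransferases and 0.022 for deacetylases, and without probe sets under the median level it was -0.0068 for deacetylases; the cause was not tested. With the replicate block 9 genes were higher and 9 lower; Pcgf6 was lost, Hdac3 was gained and no other call of the 54 genes changed. Arrays give no depth; the 3 arrays a group limit what can be called.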
